A study of Homo sapiens with 6 samples.

Results

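Mitochondrial ribosomal proteins are the nuclear-encoded proteins of the ribosome that works inside mitochondria. The genes described here were the rows of the deposited table whose symbol begins with Mrpl or Mrps, followed by a number and at most the letter a or b. This rule found 77 of the 21872 rows in the table. Of these, 51 encode proteins of the large subunit and 25 proteins of the small subunit, by textbook assignment; Mrps30 and Mrps18a were placed in the large subunit, where their proteins sit despite their names. The remaining gene, Mrps36, has a ribosomal name, but its protein is known as a component of the 2-oxoglutarate dehydrogenase complex.

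The 6 RNA libraries, 3 control and 3 knockout, came from MOC2, a cell line of mouse oral squamous carcinoma. Both groups had received lentiviral particles for CRISPR/Cas9 editing (an MOI of 25 for 18 h, then 72 h of culture), with a control construct or one against the gene for HuR, an RNA-binding protein encoded by Elavl1. The knockout libraries are named after their genotype label, while their titles speak of knockdown; the labels describe isolation of 1 clone, and nothing says that a group's libraries stem from different clones. The p-values therefore reflect only how these libraries differ among themselves, which may be technical. The labels give human as the species, whereas the gene symbols and the series title are those of mouse.

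Mitochondrial ribosomes translate the few mRNAs of the mitochondrial genome, all of which encode subunits of the oxidative phosphorylation complexes. Their proteins are made in the cytosol and imported, while their ribosomal RNAs are transcribed inside the organelle, so the particle needs balanced supply from both genomes. Many of the proteins descend from bacterial ribosomal proteins, and others were added during the evolution of mitochondria.

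The libraries held 16158516 to 21294330 counts, of which the mitochondrial ribosomal protein genes took 0.304% to 0.432%. The targeted gene Elavl1 was at 107, 120 and 117 CPM in the control libraries, against 116, 114 and 105 CPM in the knockout ones (CPM, the usual depth-scaled count, here uses library totals scaled by TMM; edgeR adjusted p = 0.82), each in the order of the replicate numbers, which holds for all values below; the mRNA level thus did not check the labels. Knockout library 3 stood apart from the other knockout libraries: the log2 differences of all genes tested had an SD of 0.888 and 0.859 against knockout libraries 1 and 2, where those 2 libraries differed from each other with an SD of 0.455. The 10 epithelial markers examined summed to between 11087 and 13792 CPM in control and between 5814 and 8521 CPM in knockout. Of 9 tested, 6 were lower (Cdh1, Epcam, Krt7, Krt8, Krt17 and Krt18) and 1 was higher, while Krt14 and Krt19 did not pass. These markers differed in size of change. Mean CPM in control and knockout were 541 and 36.9 for Epcam, 599 and 44.7 for Cdh1, and 2821 and 3358.5 for Krt19. The 1 higher was Trp63, listed at 0 in control and at 1.53, 4.51 and 15.8 CPM in the knockout libraries. Its row is among the divided rows described under the processing of the data. Those rows were picked out by a 0 in the first control library, so no level is read from the zeros of Trp63. The 10 fibroblast markers summed to at most 8.47 CPM in control and to between 409 and 430 CPM in knockout, with 3 of 4 tested higher. The 3 were Col1a1, Col3a1 and Pdgfrb, which made up most of the knockout sum, and Pdgfra did not pass. Col1a2, Dcn, Postn, Thy1 and Fap were at no more than 0.8 CPM in any library, and Lum was at 0 in every library. Endothelial, leucocyte and muscle markers each summed to at most 1.96 CPM in every library, and of these only the muscle gene Des had enough counts to test and rose. The part of these marker differences in the results below was not tested. In bulk RNA, fewer cells of a type and less RNA per cell cannot be told apart.

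Few mitochondrial ribosomal protein genes passed the test between the groups. Of the 77 genes, 76 had enough counts to test, and 4 passed an adjusted p of 0.05: Mrpl4 rose, while Mrps10, Mrps18b and Mrps5 fell. That is 5.26% of the genes tested, where 35.7% of all 12293 genes tested passed (20.3% higher and 15.4% lower) and 33.7% of the 7160 genes in the same range of mean CPM. With DESeq2 1 rose and 8 fell, against a background of 43.1% of all genes (23.1% higher and 20% lower). With limma-voom the same 4 passed, against 34.9% (18.6% higher and 16.3% lower). The remaining gene, Mrpl53, was listed at 0 in every library; the tested genes had at least 16.2 CPM on average, and no level is read from this zero.

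The fold changes lay in a narrower range than those of all genes, as did those of the oxidative phosphorylation and cytosolic ribosomal protein genes. Log2 fold changes of knockout over control ran from -0.73 to 0.43, with a median of -0.15 and quartiles of -0.32 and 0.05; over all genes tested the median was 0.03 and the quartiles were -0.43 and 0.56. Their SD across genes was 0.251 for the mitochondrial ribosomal proteins and 1.77 for all genes, and it was also small for nuclear oxidative phosphorylation genes (0.269) and cytosolic ribosomal protein genes (0.182). The 95% interval of the fold change stayed within a 2-fold change in either direction for 67 of 76 genes (88.2%), against 47.5% of all genes, 94.8% of the oxidative phosphorylation genes and 97.4% of the cytosolic ribosomal protein genes. It stayed within a 1.5-fold change for 33 of 76, so that for the others a change of that size was not excluded by these 6 libraries. The plot of fold changes shows every gene tested with its interval.

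**Figure D1:**
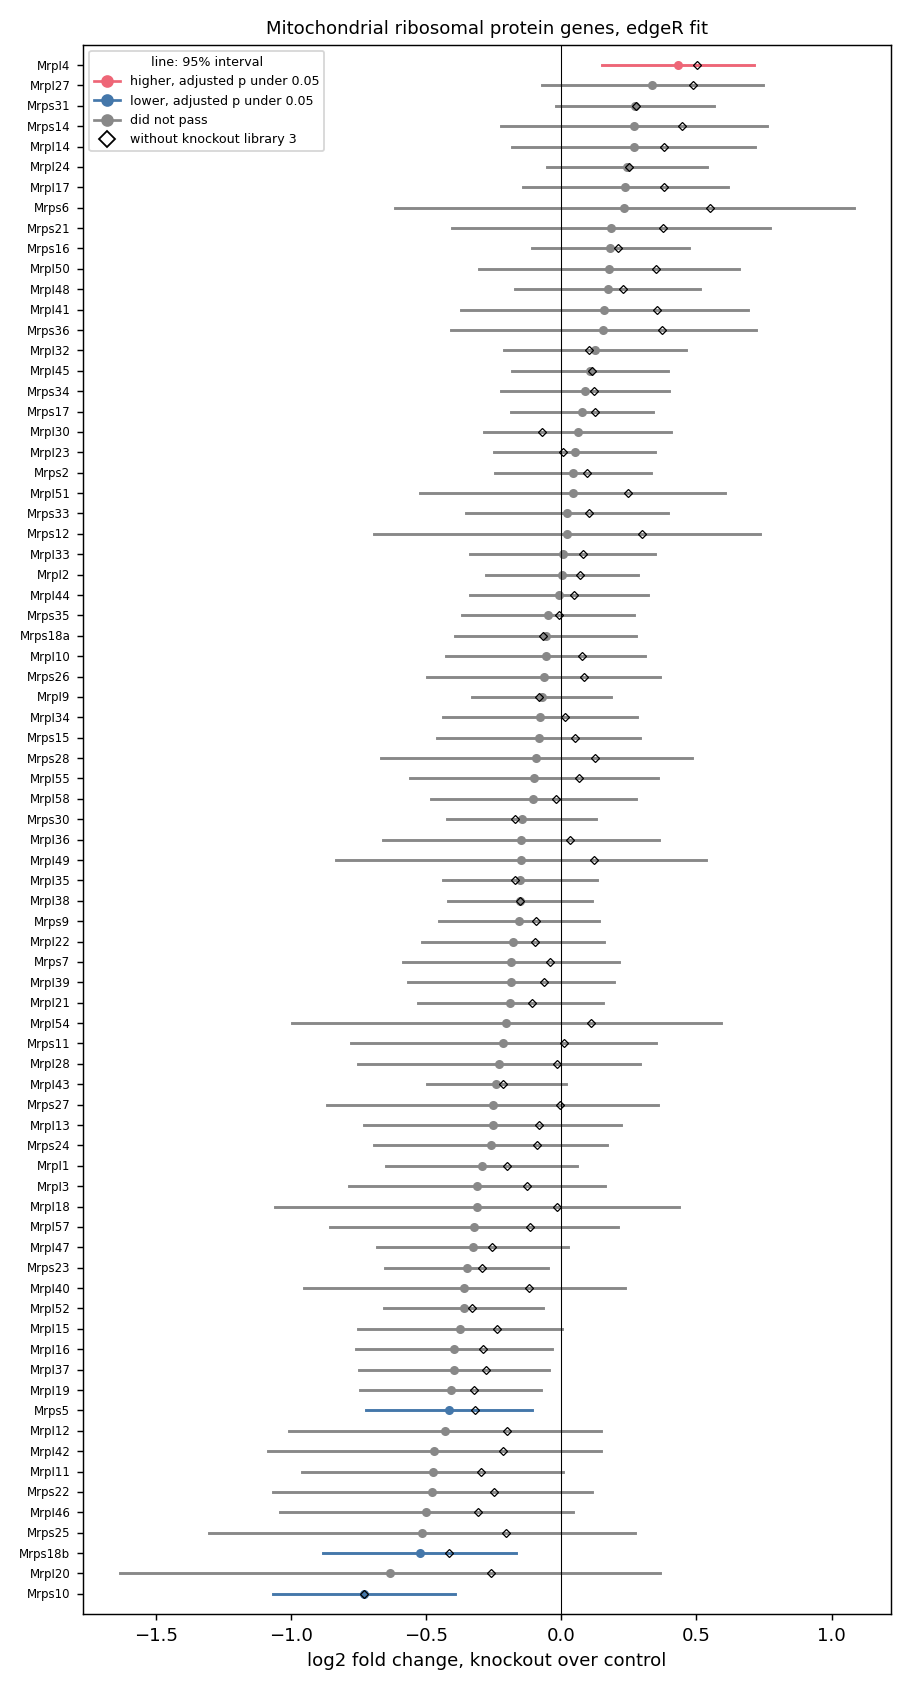
Log2 fold change of knockout over control (x axis) for the 76 mitochondrial ribosomal protein genes tested (y axis, ordered by fold change), with points and 95% intervals from the edgeR fit with 3 libraries per group, and open diamonds for the fit without knockout library 3. The 4 genes that passed are coloured; most intervals of the other genes cross 0, and the diamonds lie to the right of the points for most genes.

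Of the small subunit genes, 3 of 25 fell and 0 rose with edgeR and limma-voom, and 4 fell and 0 rose with DESeq2, which added Mrps23. The 3 are 12% of the small subunit genes, near the 15.4% of all genes that fell with edgeR. Mrps10 encodes a protein of the small subunit head related to bacterial S10. It was at 77.6, 84.6 and 76.3 CPM in the control libraries, against 54.8, 41.2 and 47.8 CPM in the knockout ones. All knockout libraries lay well under the lowest control library, and knockout library 3 stood between the other knockout libraries. The log2 fold change was -0.73 (SE 0.141, with a 95% interval from -1.07 to -0.39 and edgeR adjusted p = 0.00901), a fall from 79.5 ± 4.48 to 47.9 ± 6.83 CPM (SD, n = 3 each). Without knockout library 3 it was again -0.73 (adjusted p = 0.00298 by edgeR). This call was lost only in the test against a 1.5-fold change among the 17 alternatives run (adjusted p = 0.213 by edgeR).

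Mrps18b and Mrps5 fell by less, and their calls rested on more of the libraries. Mrps18b encodes a member of the S18 family of the small subunit. It was at 62.8, 69.2 and 62.0 CPM in the control libraries, against 52.1, 44.9 and 37.9 CPM in the knockout ones, with a log2 fold change of -0.52 (SE 0.15, adjusted p = 0.0351 by edgeR). Mrps5, which encodes the relative of bacterial S5 near the mRNA entry site, was at 77.8, 81.7 and 78.2 CPM in the control libraries, against 66.0, 60.9 and 51.4 CPM in the knockout ones, with a log2 fold change of -0.41 (SE 0.129, adjusted p = 0.0451 by edgeR). The groups did not overlap for either gene, and knockout library 3 was the lowest library for both. Neither gene passed once control library 1, 2 or 3 was left out (adjusted p = 0.0904, 0.119 and 0.0871 for Mrps18b and 0.113, 0.134 and 0.115 for Mrps5 by edgeR) or knockout library 2 (0.0837 and 0.0897).

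The S18 family has 3 mitochondrial forms, and only Mrps18b among them passed the test; the differences between their fold changes were not tested. Mrps18a, whose protein sits in the large subunit, was at 48.9, 45.4 and 38.6 CPM in the control libraries, against 45.2, 39.2 and 43.2 CPM in the knockout ones, and the groups overlapped (log2 fold change -0.06, 95% interval -0.39 to 0.28, adjusted p = 0.773 by edgeR). Mrps18c, which lies outside the naming rule, was at 25.8, 29.8 and 27.0 CPM in the control libraries, against 29.9, 31.4 and 24.4 CPM in the knockout ones (log2 fold change 0.05, adjusted p = 0.807 by edgeR).

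Mrpl4 was the only large subunit gene of 50 that passed with edgeR (2%, against 35.7% of all genes) or limma-voom. With DESeq2 Mrpl4 rose, and 4 large subunit genes fell: Mrpl16, Mrpl19, Mrpl37 and Mrpl52. Of all genes 23.1% rose and 20% fell with DESeq2. Mrpl4 encodes the relative of bacterial L4, which lines the tunnel through which the new peptide leaves. Mrpl4 was at 60.2, 58.9 and 54.6 CPM in the control libraries, against 80.9, 82.8 and 70.7 CPM in the knockout ones. Every knockout library lay above every control library, and knockout library 3 was the lowest of the knockout libraries. The log2 fold change was 0.43 (SE 0.117, with a 95% interval from 0.15 to 0.71 and edgeR adjusted p = 0.0295), or 1.35-fold, from 57.9 ± 2.92 to 78.2 ± 6.49 CPM (SD, n = 3 each). Leaving out control library 1, 2 or 3 ended this call (adjusted p = 0.0841, 0.124 and 0.146 by edgeR), as did leaving out knockout library 1 or 2 (0.0679 and 0.0802) or the filter on low counts (0.0549).

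**Figure D2:**
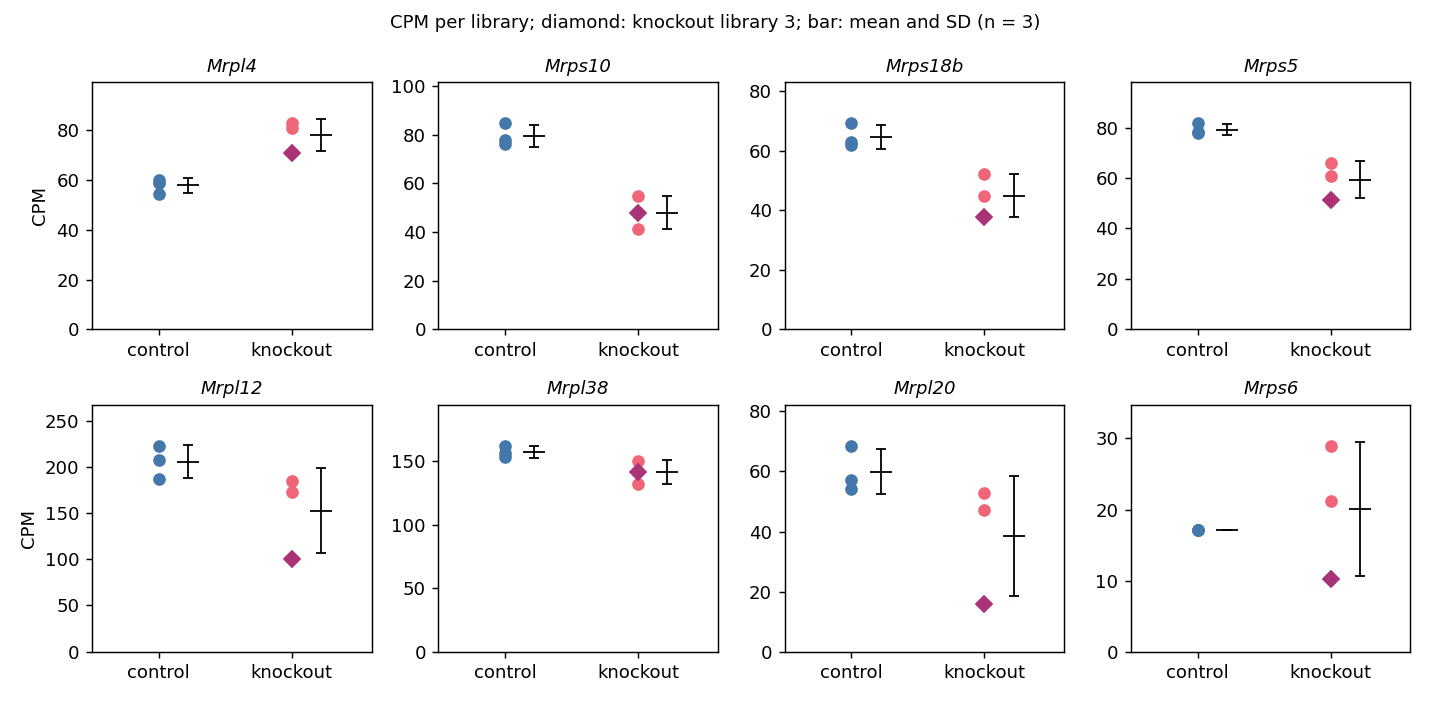
CPM (y axis, from 0) of 8 mitochondrial ribosomal protein genes in each library by group (x axis), with circles for single libraries, a diamond for knockout library 3, and a bar for the mean and SD of each group (n = 3). Knockout library 3 lies among or near the other knockout libraries for Mrps10 and Mrpl38, and far under them for Mrpl12, Mrpl20 and Mrps6.

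More genes were separated between the groups than passed the test, although fewer than among all genes. In CPM the groups did not overlap for 27 of 76 genes (35.5%), against 57.6% of all genes tested. Every knockout library was under every control library for 23 of the 76 (30.3%), near the 27.9% of all genes, and above every control library for 4 of the 76 (5.26%), against 29.7% of all genes. Those 4 were Mrpl4, Mrpl24, Mrps16 and Mrps31. Mrps31 was at 24.3, 24.7 and 26.0 CPM in the control libraries, against 31.8, 28.7 and 30.1 CPM in the knockout ones (log2 fold change 0.27, adjusted p = 0.128 by edgeR). Mrpl24, related to bacterial L24 at the tunnel exit, was at 65.2, 55.7 and 54.4 CPM in the control libraries, against 73.6, 65.3 and 68.7 CPM in the knockout ones (0.24, adjusted p = 0.172 by edgeR).

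The same test without knockout library 3 gave a different balance. It called 11 of 76 genes, 6 higher and 5 lower, against a background of 48.3% of all genes (25.5% higher and 22.8% lower), and the 4 genes called with all libraries were among the 11. The added genes that were higher were Mrpl17, Mrpl27, Mrps14, Mrps36 and Mrps6, and those that were lower were Mrpl19 and Mrpl52. Mrpl27, related to bacterial L27 near the peptidyl transferase centre, had a log2 fold change of 0.49 without this library and 0.34 with it (adjusted p = 0.0064 and 0.171 by edgeR). Mrpl19 was at -0.32 without it and -0.41 with it (adjusted p = 0.045 and 0.0609 by edgeR). The median log2 fold change of the 76 genes moved from -0.15 to -0.01, while the median of all genes was 0.03 with this library and 0.02 without it.

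Knockout libraries 1 and 2, taken alone, lay around the control level. In log2(CPM + 0.5) the median gene was 0.01, 0.09 and -0.10 from the control mean in control libraries 1, 2 and 3, and -0.03, -0.04 and -0.41 from it in knockout libraries 1, 2 and 3. Summed over the 77 genes, control libraries held 4178, 4376 and 3870 CPM and knockout libraries 4090, 4019 and 3115 CPM. Knockout library 3 was thus at 0.752 of the control mean, and knockout libraries 1 and 2 at 0.979, within the control range. Both of them were under every control library for 23 genes (30.3%, against 33.7% of all genes) and above every control library for 17 (22.4%, against 36.5%).

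In knockout library 3 the shift was shared by most of the genes. It was under both other knockout libraries for 64 of 76 genes (84.2%), against 41.6% of all genes tested, and under every control library for 57 (75%), against 44.3% of all genes. It was above every control library for 7 genes, where this held for 45.8% of all genes. The median difference between knockout library 3 and the mean of knockout libraries 1 and 2 was -0.37 on the log2(CPM + 0.5) scale, and 0.01 over all genes. This is 1 library, so these values have no replicate and no test. Under the other scalings (DESeq2 size factors, library totals alone, upper quartile) knockout library 3 was under both other knockout libraries for 63 to 65 genes, with a median difference between -0.36 and -0.42.

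**Figure D3:**
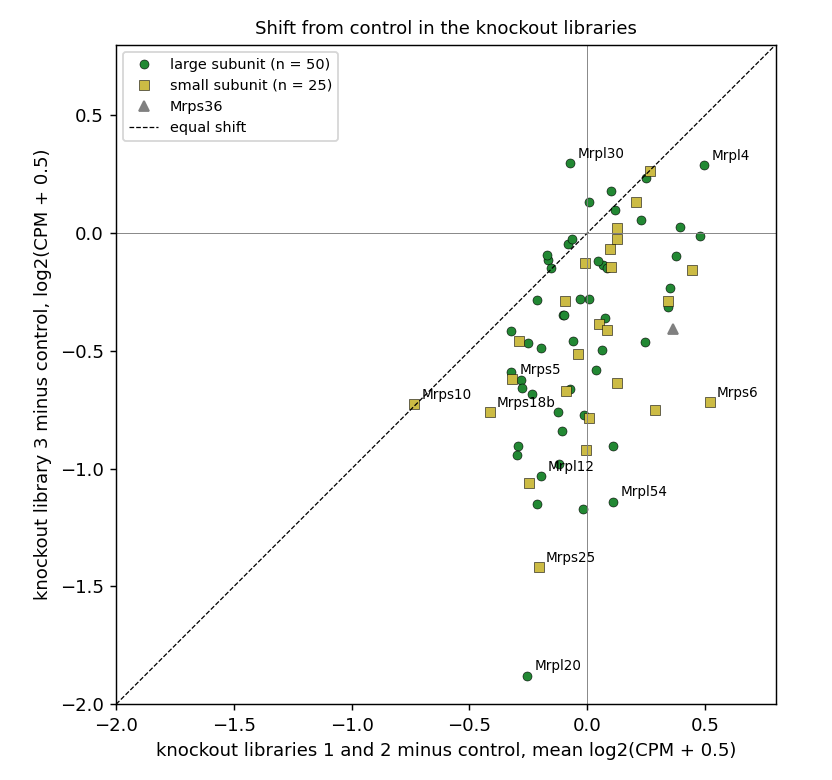
Shift from the control mean in knockout library 3 (y axis) against the mean shift in knockout libraries 1 and 2 (x axis), both as differences of log2(CPM + 0.5), for the 76 mitochondrial ribosomal protein genes tested, by subunit. Points under the dashed line were lower in knockout library 3; Mrps10 lies on the line, and Mrpl20 is farthest under it.

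The size of this shift was uneven among the genes. In knockout library 3, 7 genes were lower by at least 1 on the log2 scale than the mean of the other knockout libraries, 22 by 0.5 to 1 and 32 by 0.1 to 0.5, while 13 were within 0.1 and 2 were higher by more than that. As shares these classes were 9.21%, 28.9%, 42.1%, 17.1% and 2.63% of the 76 genes, against 8.08%, 13.4%, 21.5%, 12.6% and 44.6% of all genes. The share lower by at least 1 was thus near that of all genes. The 7 genes in it, singled out after their values were seen, were Mrpl20, Mrpl54, Mrps6, Mrps25, Mrpl18, Mrps12 and Mrpl49. Mrpl20, related to a bacterial protein that binds rRNA early in assembly, was at 57.0, 68.5 and 54.3 CPM in the control libraries, against 47.0, 52.9 and 15.9 CPM in the knockout ones, so that knockout library 3 held 32.5% of the mean of the other knockout libraries. Its log2 fold change over all libraries was -0.63 (SE 0.417, adjusted p = 0.276 by edgeR), the second most negative value of the 76 and the one with the largest SE. Mrps12, the relative of bacterial S12 at the decoding centre, was at 31.8, 34.6 and 28.9 CPM in the control libraries, against 35.1, 42.8 and 18.6 CPM in the knockout ones. Its groups overlapped, since knockout libraries 1 and 2 lay above every control library and knockout library 3 under all of them.

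Mrps6 showed the same split within the knockout group. It was at 17.1 CPM in each control library, against 21.2, 29.0 and 10.2 CPM in the knockout ones. Its log2 fold change was 0.23 with all libraries (adjusted p = 0.635 by edgeR) and 0.55 without knockout library 3 (adjusted p = 0.019 by edgeR). At the other end of the order, Mrpl30 was at 80.9, 78.9 and 72.4 CPM in the control libraries, against 77.3, 69.9 and 95.1 CPM in the knockout ones, so that knockout library 3 was the highest of all 6 libraries. Mrpl23 was the other gene of the 2 that were higher in knockout library 3.

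Both subunits and both evolutionary classes held genes that were lower in knockout library 3. The median log2 fold change was -0.15 over 50 large subunit genes and -0.08 over 25 small subunit genes, and knockout library 3 was under both other knockout libraries for 40 and 23 of them (80% and 92%, against 41.6% of all genes). Of 47 genes whose proteins have bacterial relatives 1 rose (2.13%, against 20.3% of all genes) and 3 fell (6.38%, against 15.4%), with a median of -0.10. Of 28 genes for proteins specific to mitochondria 0 passed with edgeR (against 35.7% of all genes), with a median of -0.15. At an unadjusted edgeR p under 0.05 there were 3 of these 28, against 5702 of all 12293 genes tested. DESeq2 called 3 of the 28 lower (Mrpl37, Mrpl52 and Mrps23), where it called 20% of all genes lower, and limma-voom called 0. Differences between these classes were not tested.

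The proteins of the stalk recruit elongation factors to the large subunit. Mrpl12, the stalk protein that also binds the mitochondrial RNA polymerase, was at 208, 223 and 187 CPM in the control libraries, against 185, 173 and 100 CPM in the knockout ones. The groups did not overlap, but the spread in knockout was wide (206 ± 18.0 against 153 ± 46.0 CPM, SD, n = 3 each), and the log2 fold change of -0.43 did not pass (95% interval -1.01 to 0.15, adjusted p = 0.207 by edgeR). Mrpl11, of the same region, was at 53.5, 57.0 and 49.0 CPM in the control libraries, against 39.8, 46.8 and 28.2 CPM in the knockout ones (-0.47, adjusted p = 0.112 by edgeR). Mrpl10, which anchors the stalk, was at 111, 113 and 99.7 CPM in the control libraries, against 115, 112 and 84.0 CPM in the knockout ones (-0.06, adjusted p = 0.795 by edgeR). In knockout library 3 all 3 stalk genes were under every other library.

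Genes listed for the rim of the peptide exit (Mrpl17, Mrpl22, Mrpl23, Mrpl24, Mrpl45 and Mrpl47; Mrpl4, described above, is not in this list) went both ways in knockout library 3. Its shift from the control mean was -0.47 for Mrpl47, -0.35 for Mrpl22 and -0.10 for Mrpl17, and 0.13 for Mrpl23, 0.24 for Mrpl24 and 0.10 for Mrpl45. The median shift was -0.90 over the 3 stalk genes and -0.28 over the 9 genes of the central protuberance, the crown of the large subunit; differences between these sets were not tested. Mrpl45, which ties the ribosome to the inner membrane, was at 96.1, 85.6 and 77.4 CPM in the control libraries, against 95.9, 90.8 and 92.2 CPM in the knockout ones (log2 fold change 0.11, adjusted p = 0.525 by edgeR). With all 6 libraries, none of the genes in these 3 lists, which leave out Mrpl4, passed with edgeR, DESeq2 or limma-voom. Of all genes 35.7%, 43.1% and 34.9% passed with these tools. In these lists 0 genes had an unadjusted edgeR p under 0.05, against 5702 of all 12293 genes tested. Without knockout library 3, edgeR called 1 of the 6 exit genes (Mrpl17) and 1 of the 9 central protuberance genes (Mrpl27) higher. Of all genes 25.5% were called higher in that fit.

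Some genes had values tight enough to bound their change. Of the genes that did not pass, Mrpl9, Mrpl43, Mrps17 and Mrpl38 had the smallest SEs. Mrpl9, related to bacterial L9, was at 77.9, 80.0 and 71.3 CPM in the control libraries, against 74.8, 69.3 and 73.9 CPM in the knockout ones, with a 95% interval of -0.33 to 0.18 on the log2 scale. Mrps17 had an interval of -0.18 to 0.34, from 64.0 ± 2.47 CPM in control to 67.5 ± 4.01 CPM in knockout (SD, n = 3 each). Mrpl38, of the central protuberance, was at 156, 162 and 153 CPM in the control libraries, against 150, 132 and 141 CPM in the knockout ones, where every knockout library was under every control library and the interval was -0.42 to 0.11. Mrpl43 had an interval of -0.50 to 0.02 (adjusted p = 0.127 by edgeR).

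Mrpl12, Mrpl38, Mrps7 and Mrpl10 had the highest mean CPM, and so the most counts behind their values, and Mrps33, Mrpl41, Mrps6 and Mrps28 the lowest of those tested. CPM are not corrected for transcript length, so this order is one of counts and not of transcript levels. Mrps7, related to bacterial S7 in the small subunit head, was at 113, 128 and 107 CPM in the control libraries, against 113, 112 and 80.9 CPM in the knockout ones (adjusted p = 0.422 by edgeR). Mrps33 was at 17.1, 16.1 and 15.0 CPM in the control libraries, against 17.2, 17.2 and 14.5 CPM in the knockout ones, with overlapping groups (adjusted p = 0.928 by edgeR). Mrpl41 rested on 224 to 469 counts per library and had 17.2 ± 1.40 CPM in control against 19.2 ± 4.86 CPM in knockout (adjusted p = 0.604 by edgeR). For Mrps28, related to bacterial S1, the values were 20.3 ± 1.70 and 19.1 ± 5.42 CPM (SD, n = 3 each, adjusted p = 0.79 by edgeR).

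The particle also holds proteins whose genes carry other names. Of 6 such genes (Mrps18c among them) 1 rose with edgeR (16.7%, near the 20.3% of all genes). Aurkaip1, a small subunit protein that also binds Aurora A kinase, was at 76.0, 73.7 and 69.5 CPM in the control libraries, against 95.7, 102 and 85.4 CPM in the knockout ones (log2 fold change 0.37, adjusted p = 0.0481 by edgeR). Ptcd3 and Chchd1 were at 29.8 and 28.6 CPM in knockout library 3 and at 74.2 to 87.1 and 55.8 to 62.1 CPM in control, with adjusted p = 0.237 and 0.119 by edgeR. Dap3, the GTP-binding protein of the small subunit, was at 107, 109 and 106 CPM in the control libraries, against 124, 117 and 92.2 CPM in the knockout ones (adjusted p = 0.795 by edgeR). Knockout library 3 was under both other knockout libraries for all 6, where this held for 41.6% of all genes.

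Genes that build and serve the mitochondrial ribosome were examined beside its proteins. Of 27 assembly and rRNA modification genes 3 fell and 1 rose, of 15 translation factors and regulators 2 fell, of 20 mitochondrial aminoacyl-tRNA synthetases and related enzymes 3 fell, and of 16 regulators of mitochondrial transcription and biogenesis 4 fell and 1 rose. The shares that fell were 11.1%, 13.3%, 15% and 25%, where 15.4% of all genes fell. The 25% of the last list are 4 of only 16 genes. The shares that rose were 3.7%, 0%, 0% and 6.25%, where 20.3% of all genes rose. In both directions together 14.8%, 13.3%, 15% and 31.2% passed, against 35.7% of all genes. Differences between these lists and the ribosomal proteins were not tested. Among assembly factors, the GTPases Gtpbp10 and Mtg1 fell (-0.62 and -0.77 on the log2 scale, adjusted p = 0.0097 and 0.0167 by edgeR). Rcc1l fell by 0.58 and the rRNA methyltransferase Mettl15 rose by 0.96 on the same scale (adjusted p = 0.0278 and 0.0333 by edgeR).

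The translation factors that fell, Gfm1 and Tsfm, both serve elongation. Gfm1, the mitochondrial elongation factor G, was at 93.7, 108 and 101 CPM in the control libraries, against 67.9, 61.7 and 48.3 CPM in the knockout ones (log2 fold change -0.77, adjusted p = 0.0107 by edgeR). Tsfm, the exchange factor that recharges the factor delivering aminoacyl-tRNA, was at 47.3, 45.9 and 41.4 CPM in the control libraries, against 31.3, 25.4 and 15.8 CPM in the knockout ones (-0.89, adjusted p = 0.0338 by edgeR). Gfm2, which splits the subunits after translation, and Guf1 did not pass (-0.48 and 0.48, adjusted p = 0.0597 and 0.0614 by edgeR). Knockout library 3 was the lowest library for Gfm1 and Tsfm, and the other knockout libraries were also under every control library.

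Mars2 and Qrsl1 had the largest falls of the enzymes that charge mitochondrial tRNAs. Mars2, the methionyl-tRNA synthetase, was at 16.4, 23.2 and 18.4 CPM in the control libraries, against 9.86, 8.82 and 9.31 CPM in the knockout ones (log2 fold change -1.05, adjusted p = 0.00711 by edgeR). Qrsl1, a subunit of the amidotransferase that makes glutaminyl-tRNA, was at 15.7, 16.7 and 13.3 CPM in the control libraries, against 8.45, 7.15 and 5.33 CPM in the knockout ones (-1.13, adjusted p = 0.011 by edgeR). Aars2, the alanyl-tRNA synthetase, fell with a log2 fold change of -0.53 (adjusted p = 0.0452 by edgeR), and Ears2 did not pass (-0.63, adjusted p = 0.077). The groups did not overlap for Mars2 or Qrsl1.

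Among the regulators, Pprc1, Gabpb1, Esrra and Myc fell and Mterf2 rose. Pprc1, a coactivator related to PGC-1, was at 185, 246 and 224 CPM in the control libraries, against 121, 124 and 95.1 CPM in the knockout ones (log2 fold change -0.95, adjusted p = 0.00665 by edgeR). Gabpb1, a subunit of the factor NRF-2 that acts on many promoters of mitochondrial genes, was at 44.3, 46.0 and 46.1 CPM in the control libraries, against 32.3, 28.1 and 27.1 CPM in the knockout ones (-0.64, adjusted p = 0.00973 by edgeR). Esrra, a nuclear receptor of energy metabolism, had a log2 fold change of -0.58, and Myc one of -0.57 (adjusted p = 0.0119 and 0.0129 by edgeR). Mterf2 had a log2 fold change of 0.81 (adjusted p = 0.0384 by edgeR). For all 5 genes the groups did not overlap.

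The products of mitochondrial translation could not be examined. All 13 rows of mitochondrially encoded mRNAs, mt-Co1 and mt-Nd1 among them, were listed at 0 in every library. Every respiring cell uses these genes, so the zeros give no level for them.

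Nuclear genes for oxidative phosphorylation subunits, many of whose proteins join those made by the mitochondrial ribosome, were set beside these values. Of 77 tested, 10 rose and 0 fell with edgeR (14 and 0 with DESeq2, 11 and 0 with limma-voom), with a median log2 fold change of 0.12. The 10 are 13%, under the 20.3% of all genes that rose with edgeR (23.1% with DESeq2 and 18.6% with limma-voom). Both knockout libraries 1 and 2 were above every control library for 56 of them (72.7%, against 36.5% of all genes), and knockout library 3 was under both for 68 (88.3%, against 41.6%). Ndufv3, a subunit of complex I, was at 38.8, 29.5 and 31.4 CPM in the control libraries, against 69.0, 76.2 and 55.3 CPM in the knockout ones (1.01, adjusted p = 0.00649 by edgeR). Without knockout library 3, 27 of the oxidative phosphorylation genes rose (35.1%, against 25.5% of all genes) and 1 fell. Fits that each omitted 1 control library had 1 to 4 that rose. Over all genes, too, fewer rose in those fits, 1166 to 1511 against 2493 with all libraries.

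Genes for cytosolic ribosomal proteins had positive median shifts in all knockout libraries, with the highest sum in knockout library 3. Of 77 of their genes tested, 1 rose with edgeR and limma-voom (Rps21, adjusted p = 0.049992 by edgeR) and 6 with DESeq2. The median log2 fold change was 0.23. The 1 with edgeR is 1.3%, against 20.3% of all genes. Without knockout library 3, 13 rose (16.9%, against 25.5%). With any 1 control library omitted 0 of the cytosolic genes rose, where 1166 to 1511 of all genes rose. The median shift of the cytosolic genes from control in knockout library 3 was 0.45. It was -0.19 for the oxidative phosphorylation genes and -0.41 for the mitochondrial ribosomal proteins. Against the mean of knockout libraries 1 and 2, the median shift of knockout library 3 was 0.335, -0.384 and -0.374 for these 3 lists. By that measure the oxidative phosphorylation genes and the mitochondrial ribosomal proteins were alike. Summed CPM of the cytosolic genes were 74611 to 82884 in control, 84450 and 85467 in knockout libraries 1 and 2, and 103700 in knockout library 3. The mitochondrial ribosomal protein sum was lowest in the library where the cytosolic sum was highest, as the plot of shifts by library shows; with 1 such library this is a description.

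**Figure D4:**
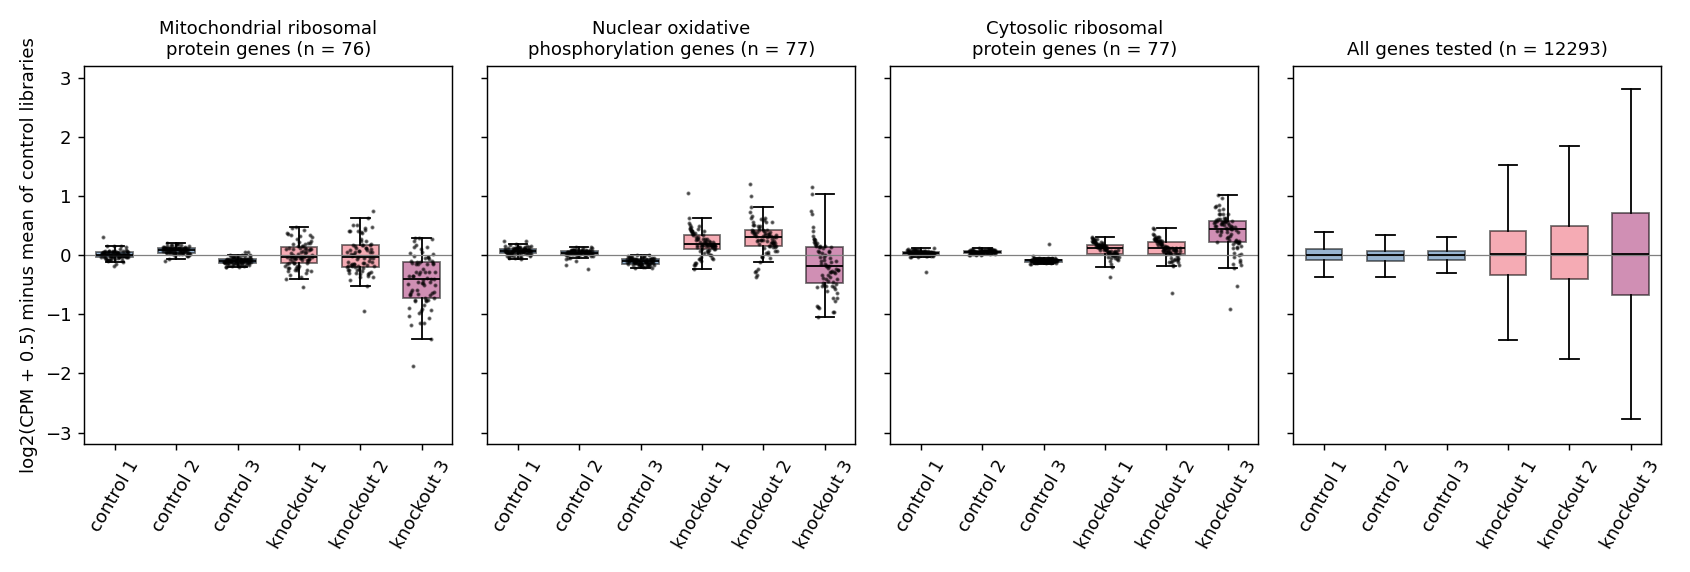
Log2(CPM + 0.5) minus the mean of the control libraries (y axis) in each library (x axis) for mitochondrial ribosomal protein genes, nuclear oxidative phosphorylation genes, cytosolic ribosomal protein genes and all genes tested; boxes show median and quartiles, whiskers reach to the last gene within 1.5 times the box height, and points are genes (not drawn for all genes). In knockout library 3 the median is -0.41 for the mitochondrial and 0.45 for the cytosolic ribosomal proteins, while the median of all genes stays at 0.02.

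The log2 differences between libraries varied little from gene to gene within control, and more in knockout. The SDs below leave out any shift that the genes share. As median differences between control libraries 1 and 2, 1 and 3, and 2 and 3, that shift was -0.075, 0.114 and 0.177. For all genes tested these medians were 0, 0.011 and 0. Across the 76 genes, the log2 differences between control libraries had SDs of 0.088 to 0.121, those between knockout libraries 1 and 2 an SD of 0.176, and those between knockout library 3 and the others SDs of 0.345 and 0.437. For all genes tested the same SDs were 0.262 to 0.366, 0.455, and 0.888 and 0.859. SEs of the log2 fold changes accordingly ran from 0.107 for Mrpl9 to 0.417 for Mrpl20, with each gene tested resting on at least 167 counts in every library.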

How the data were processed

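The authors deposited 1 table of counts per gene symbol for the 6 libraries, whole numbers throughout; the submitters' processing notes name STAR 2.7.1a, featureCounts and hg38. The sources used here do not give annotation, strand setting or filters. In 1704 rows, those at 0 in the first control library but not in all, every value is a multiple of 11; these were divided by 11, and 0 of the mitochondrial ribosomal protein genes are among them. All genes were fitted together with edgeR 4.0.16 in R 4.3.3 (low counts filtered by filterByExpr, TMM normalization, quasi-likelihood test with Benjamini-Hochberg adjustment over 12293 genes, threshold 0.05). The procedure was also run on simulated counts. These held no outlying library such as knockout library 3, so the run does not speak to its effect. DESeq2 1.42.0, limma-voom (limma 3.58.1), other scalings and filters, each left-out library and a replicate block were alternatives. Totals of 16158516 to 21294330 counts set the precision; reads of overlapping genes and of processed pseudogenes, common for ribosomal proteins, may be split in ways that were not checked.

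The genes and gene lists were chosen with earlier results of these data known. Named were all called genes (at most 12 per direction), the 4 with the highest and the 4 with the lowest mean CPM, the 4 uncalled with the smallest SE, Mrps18a, Mrps18b and untested genes, and from each other list the genes with the smallest p; others were picked after their values were seen. No set test was run. Sequences, promoters and gene neighbours were not used here, since the reference at hand was human.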

Additional observations from a re-analysis of the deposited data

How the results depend on the processing

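Over the 17 alternatives the median log2 fold change of the mitochondrial ribosomal protein genes ran from -0.2 to -0.012. The number that fell was 5 with DESeq2 size factors in edgeR (2 of the large subunit) and 8 with DESeq2 (4 of the large subunit). Over all genes 1996 and 2451 fell in these fits. With no filter on low counts 0 rose, where 2392 of all genes did. In a fit with the replicate block 0 rose and 1 fell (Mrps10, small subunit), so 0 of the large subunit rose. Over all genes 1976 rose and 1615 fell in that fit. Deviations from the group means had r = -0.045, 0.282 and 0.043 between same-numbered libraries, and -0.255 to 0.188 between the others. With 3 libraries per group these deviations are tied to each other, so the r values cannot settle whether the numbers are pairs. The numbers were not taken as pairs. Against a 1.5-fold change 0 rose and 0 fell in either subunit, and 1307 and 973 of all genes. Leaving out 1 library each time, 0 to 6 rose and 1 to 5 fell (large subunit 0 to 3 and 0 to 2, small subunit 0 to 2 and 1 to 3), and 1166 to 3178 of all genes rose and 1130 to 2843 fell; the highest counts over all genes came without knockout library 3. Among the 84 other genes of mitochondrial translation tested 3 rose and 12 fell, where 2493 and 1899 of all 12293 genes did. With DESeq2 6 rose (2832 of all genes), with no filter 1 (2392) and with the replicate block 0 (1976). Against a 1.5-fold change 0 rose and 1 fell (1307 and 973 of all genes). Leaving out 1 library gave 0 to 6 and 6 to 15, beside the ranges over all genes given above. Of 272 values for the 16 named ribosomal protein genes, 238 kept direction and side of the threshold and 12 changed sign, all of genes that did not pass: Mrps33 was at -0.003 with DESeq2 size factors, -0.002 with DESeq2, -0.011 with no filter and -0.051 to 0.101 with 1 library left out. Over the same left-out libraries Mrpl10 ran from -0.141 to 0.075, Mrps6 from -0.122 to 0.552, Mrps28 from -0.24 to 0.126 and Mrps18a from -0.174 to 0.013. The cause was not tested. With 6 libraries, the median half-width of the 95% interval was 0.374 on the log2 scale, which limits what can be seen.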
